A study of Mus musculus with 12 samples.

Results

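Mouse embryonic stem cells without p53 were set against wild-type cells of the same line after DNA damage by doxorubicin, in 4 of the 12 libraries of the series: 2 of p53 KO cells and 2 of wild-type cells. The members were taken by their labelled genotype and agent. All cells were E14 mESCs grown on gelatin in serum with LIF and the inhibitors PD0325901 (MEK) and CHIR99021 (GSK3), which act on ERK and Wnt signalling and were present in all groups. The p53 KO group held 2 knockout lines given 1 uM doxorubicin for 6 hours and then drug-free medium, one library a line (line 1 and line 2). The wild-type group held 2 libraries of 1 line given the same treatment, called a and b here because their columns carry no number. How long the cells stayed in drug-free medium is not given in the sources used here, nor is the kind of edit made in the p53 gene. The same genotypes under DMSO vehicle for 6 hours, 2 libraries each, served as the comparison without drug, and 2 libraries of Dux KO cells under the drug are set beside them for the 2-cell genes. Poly-A RNA was sequenced, and levels are given in CPM, a gene's count scaled to the size of its library after TMM normalisation.

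p53, the product of Trp53, is a transcription factor that the MDM2 ubiquitin ligase keeps at a low level in undamaged cells. Doxorubicin intercalates into DNA and traps topoisomerase II on broken ends; the ATM and ATR kinases then free p53 from MDM2, and p53 binds a response element made of a pair of half-sites near genes of cell-cycle arrest, cell death, repair and its own feedback control. In mouse embryonic stem cells p53 is also known to lower Nanog and to act upstream of Dux, the homeobox factor that turns on the genes of the 2-cell embryo.

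The gene counts summed to 26838781 and 23270358 in the p53 KO drug libraries and to 29055471 and 30493264 in the wild-type drug libraries, and 32124, 32183, 33629 and 34297 genes had a count in them in that order. The 3 main ribosomal RNA loci held 0.0882% and 1.21% of the counts in p53 KO cells and 0.462% and 6.13% in wild-type cells; leaving these loci out moved no count of calls by over 1.5 times. All 7 stem cell markers were present, and their summed level was 2790 and 2140 CPM in p53 KO cells and 938 and 814 CPM in wild-type cells under the drug, against 4210 to 4580 CPM in the 4 vehicle libraries of these genotypes. In bulk samples, fewer cells of a type and less RNA per cell cannot be told apart. Duplicates of a group are called biological by the submitters, and for wild-type cells both come from 1 line. The p-values rest on the spread within groups over all 11 libraries used, not on these 4 alone. That spread mixes differences between knockout lines with differences between libraries of 1 wild-type line, and it holds none between wild-type lines. The 2 knockout lines lay over 2-fold apart in 12% of the 16043 genes with at least 5 CPM, against 0.43% for the wild-type libraries.

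Trp53 itself (chr11:69580359-69591873, + strand, GRCm38) was still transcribed in the knockout lines, with 95.5 and 42.6 CPM in p53 KO cells and 135 and 133 CPM in wild-type cells. Values after ± here and below are approximate standard errors, worked out from the log2 fold change and the F value of edgeR's test. Both knockout libraries lay below both wild-type ones, as in 37.2% of all genes tested. The difference missed the threshold (log2 fold change -0.95 ± 0.36, adjusted p = 0.058, edgeR). Without line 1 it was -1.65 with adjusted p = 0.0027, and without line 2 -0.48 with adjusted p = 0.21. The authors' own table of this contrast, from DESeq or DESeq2, gave -0.96 with adjusted p = 0.046. Under vehicle the levels were 72.4 and 39.8 CPM in p53 KO cells and 193 and 159 CPM in wild-type cells. Since the edited stretch is not given, a transcript level neither checks the labels nor goes against them.

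The p53 response element could be read in the promoters of several genes that differed, and the stretches below show where: every called member of the p53 lists described here whose match lies wholly before the start of its RefSeq window. Ms4a10 was added after its values were seen, as the called gene with such a match that fell most. Each line gives 60 bases of the RefSeq promoter (GRCm38.p6), 5′ to 3′ on the gene's strand, with the matched element in capitals.
Ms4a10 (chr19:10974761-10974820, - strand): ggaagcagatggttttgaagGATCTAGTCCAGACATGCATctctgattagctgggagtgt
Ccng1 (chr11:40755442-40755501, - strand): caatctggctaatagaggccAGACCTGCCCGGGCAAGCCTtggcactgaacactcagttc
Trp73 (chr4:154097200-154097259, - strand): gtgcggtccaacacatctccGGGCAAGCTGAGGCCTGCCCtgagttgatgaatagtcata
Cdkn1a (chr17:29090908-29090967, + strand): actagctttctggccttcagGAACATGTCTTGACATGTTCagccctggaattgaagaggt
Ckap2 (chr8:22185983-22186042, - strand): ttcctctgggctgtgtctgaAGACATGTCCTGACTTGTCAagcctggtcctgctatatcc
Bax (chr7:45467059-45467118, - strand): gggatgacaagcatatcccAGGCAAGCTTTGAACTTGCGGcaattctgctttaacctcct
The search asked for 2 p53 half-sites of 10 bases on either strand, with a spacer of 0 or 1 base, the invariant C and G of each half-site intact and at most 2 mismatches in the 20 bases, in the window of 250 bases before to 50 after each start. The pattern reads the same on both strands. A match was present for 62 of 3838 genes lower in p53 KO cells (1.62%), for 25 of 3991 higher genes (0.626%), for 49 of 8231 genes not called (0.595%) and for 218 of all 27025 genes with a promoter sequence (0.807%). By list, 2 of 7 feedback, 2 of 10 arrest, 1 of 10 death, 1 of 18 metabolism and repair, 1 of 9 low-copy 2-cell and 0 of 18 multicopy 2-cell genes with a sequence held one. The matches in Ccng1 and Cdkn1a had 1 mismatch and the other 4 had 2; the Cdkn1a window lies before the first of its 2 RefSeq starts, and the Trp73 window before a RefSeq start inside the gene, whose GENCODE span is 154056253 to 154140208 on chromosome 4. A match describes letters and not binding. Ms4a10, of the MS4A membrane proteins, had 0.208 and 0.5 CPM in p53 KO cells and 64 and 61.8 CPM in wild-type cells. For Ms4a10 the log2 fold change was -7.47 ± 0.45 (adjusted p = 1.1e-05). Ckap2, a spindle protein and known p53 target, was at 145 and 67.4 CPM in p53 KO cells, against 523 and 535 CPM in wild-type cells. For Ckap2 the log2 fold change was -2.32 ± 0.32 (adjusted p = 0.0005).

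Under doxorubicin, 6221 genes were higher and 6306 lower in p53 KO cells than in wild-type cells, of 28643 tested (edgeR's quasi-likelihood test, adjusted p under 0.05), which is 43.7% of all genes tested, 21.7% higher and 22% lower. Of these, 3911 rose and 5118 fell by more than 2-fold, and large changes were mostly falls: 771 genes were over 32-fold lower and 144 over 32-fold higher. The median gene moved by 0.02 on the log2 scale. The shares of 21.7% higher and 22% lower are the background for the counts of list members below. The share of calls that were higher was 49.7% with counts, and it moved when low genes were left out. limma on the log2 of the authors' FPKM plus 1, for the 14614 genes with at least 1 FPKM in 2 libraries, called 5234 higher and 2791 lower, or 65.2% higher, and the median gene then moved by 0.26. Without that filter it called 7300 higher and 6707 lower, or 52.1% higher. The counts of genes that pass the same filter gave 57.8% higher. Without wild-type library b, 3883 genes were higher and 4301 lower. RLE size factors moved the median gene to -0.09. Among the genes tested here, the authors' deposited table of this contrast had 4793 higher and 5635 lower in p53 KO cells (adjusted p under 0.05). The 10063 genes called both there and here all had the same sign.

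Genes of p53 feedback control formed the first group. Of its 10 tested members, 7 fell in p53 KO cells and 1 rose, with a median log2 fold change of -1.77. Mdm2 (chr10:117688875-117710758, - strand, GRCm38), the ligase gene that p53 itself turns on, had 69.8 and 52.4 CPM in p53 KO cells and 949.9 and 947 CPM in wild-type cells. Both groups were tight and far apart. For Mdm2 the log2 fold change was -3.96 ± 0.16 (adjusted p = 7.6e-06). Ccng1, cyclin G1 and a long-known p53 target, had 78.5 and 16.2 CPM in p53 KO cells and 1067 and 1051 CPM in wild-type cells. For Ccng1 the log2 fold change was -4.48 ± 0.75 (adjusted p = 0.0014). Line 2 was the lower; the value was -6.03 without line 1 and -3.75 without line 2. Trp73, the p53 relative p73, was at 3.61 and 2 CPM in p53 KO cells, against 44.2 and 41.1 CPM in wild-type cells. For Trp73 the log2 fold change was -3.92 ± 0.27 (adjusted p = 1.6e-05). Trp53inp1, a nuclear protein that promotes p53's activity, was at 71.2 and 58.2 CPM in p53 KO cells, against 744 and 789.6 CPM in wild-type cells. For Trp53inp1 the log2 fold change was -3.57 ± 0.17 (adjusted p = 7.6e-06). Ppm1d, the WIP1 phosphatase that switches damage signalling off, fell less, at 24.5 and 20.6 CPM in p53 KO cells, against 87 and 81.2 CPM in wild-type cells. For Ppm1d the log2 fold change was -1.90 ± 0.13 (adjusted p = 1.9e-05). The member that rose was Cop1, another ubiquitin ligase directed at p53, with 43.2 and 45.5 CPM in p53 KO cells and 19.11 and 21.1 CPM in wild-type cells. For Cop1 the log2 fold change was 1.14 ± 0.14 (adjusted p = 0.00022). Mdm4 and Rchy1 completed the 7 that fell, while Trp63 and Trp53cor1 did not pass. Trp53cor1, the noncoding lincRNA-p21, had 6.28 and 5.71 CPM in p53 KO cells and 7.75 and 6.71 CPM in wild-type cells.

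Of 12 arrest genes, 9 fell and none rose (0 at an unadjusted p under 0.05 and 0 by DESeq2, as in the death list, the multicopy 2-cell list and, for rises, the histone list below), with a median log2 fold change of -2.96; Trp53inp1 stands in this list too. Cdkn1a, the p21 inhibitor of cyclin-dependent kinases, had 47 and 26.2 CPM in p53 KO cells and 188 and 186 CPM in wild-type cells. For Cdkn1a the log2 fold change was -2.35 ± 0.25 (adjusted p = 0.00011). Plk2, a polo-like kinase of the damage response, had 30.3 and 7.78 CPM in p53 KO cells and 495 and 565 CPM in wild-type cells. For Plk2 the log2 fold change was -4.80 ± 0.56 (adjusted p = 0.00019). Btg2, an antiproliferative cofactor, was at 35 and 14.5 CPM in p53 KO cells, against 384 and 365 CPM in wild-type cells. For Btg2 the log2 fold change was -3.92 ± 0.54 (adjusted p = 0.00047). Line 2 was the lower knockout line in each. The groups did not overlap in these, nor in any of the 9385 called genes of at least 5 CPM. With 2 libraries a group the call itself favours such genes, so this adds no support to the calls. Of all genes tested, both p53 KO libraries were higher than both wild-type libraries in 36.1% and lower in 37.2%. Rprm, the G2 arrest protein Reprimo, was at 0.347 and 0.214 CPM in p53 KO cells, against 9.01 and 9.11 CPM in wild-type cells. For Rprm the log2 fold change was -4.99 ± 0.59 (adjusted p = 0.00021). Ptprv, a receptor phosphatase that mediates p53-dependent arrest in the mouse, had 14.2 and 0.571 CPM in p53 KO cells and 211 and 206 CPM in wild-type cells. For Ptprv the log2 fold change was -4.81 ± 1.03 (adjusted p = 0.005). Line 1 held most of what remained, and without it the value was -8.50. Gpnmb, a transmembrane glycoprotein, was at 15.7 and 5.82 CPM in p53 KO cells, against 137 and 138 CPM in wild-type cells. For Gpnmb the log2 fold change was -3.68 ± 0.56 (adjusted p = 0.00079). Gadd45a, a stress protein that binds cyclin-dependent kinase complexes, had 24.4 and 13 CPM in p53 KO cells and 36 and 41.4 CPM in wild-type cells and did not pass. For Gadd45a the log2 fold change was -1.05 ± 0.39 (adjusted p = 0.056). Plk3 and Gdf15 did not pass either. Without wild-type library b, 8 of the 12 fell.

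All 14 cell death genes of the p53 list fell in p53 KO cells, with a median log2 fold change of -2.81. Fas, the death receptor, had 1.73 and 0.214 CPM in p53 KO cells and 58.5 and 59.8 CPM in wild-type cells. For Fas the log2 fold change was -5.91 ± 0.62 (adjusted p = 0.00011). Pmaip1, the BH3-only protein NOXA, had 35 and 10.4 CPM in p53 KO cells and 406 and 435 CPM in wild-type cells. For Pmaip1 the log2 fold change was -4.21 ± 0.57 (adjusted p = 0.00044). Bbc3, the BH3-only protein PUMA, was at 3.88 and 1.93 CPM in p53 KO cells, against 29.4 and 30.1 CPM in wild-type cells. For Bbc3 the log2 fold change was -3.35 ± 0.43 (adjusted p = 0.0003). In each of the 3, line 2 held the lowest level and both wild-type libraries nearly the same one. Perp, a membrane protein of p53-dependent apoptosis, was at 15.4 and 3.14 CPM in p53 KO cells, against 263 and 294 CPM in wild-type cells. For Perp the log2 fold change was -4.91 ± 0.82 (adjusted p = 0.0013). The knockout lines differed here, and the value was -6.47 without line 1 and -4.17 without line 2. Eda2r, the ectodysplasin A2 receptor, had 8.43 and 0.107 CPM in p53 KO cells and 159.8 and 172 CPM in wild-type cells. For Eda2r the log2 fold change was -5.27 ± 1.42 (adjusted p = 0.015). Without line 1 the value was -10.55. Bax, the pore-forming BCL2 relative, changed least among those named here, with 95.9 and 69.9 CPM in p53 KO cells and 186 and 173 CPM in wild-type cells. For Bax the log2 fold change was -1.12 ± 0.17 (adjusted p = 0.00074). Zmat3, Aen, Pidd1, Dram1, Apaf1, Tnfrsf10b, Ei24 and Siva1 also fell. In the BCL2 family outside this list, 5 of 14 rose and 4 fell, with a median of 0.56. Here 64.3% were called either way, against 43.7% of all genes tested (21.7% higher and 22% lower). The pore-forming Bak1 had 75.5 and 53.4 CPM in p53 KO cells and 11 and 11.8 CPM in wild-type cells. For Bak1 the log2 fold change was 2.50 ± 0.19 (adjusted p = 2.5e-05). Mcl1, a survival gene, had 172 and 195 CPM in p53 KO cells and 565 and 622 CPM in wild-type cells. For Mcl1 the log2 fold change was -1.69 ± 0.20 (adjusted p = 0.00018).

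Among 22 p53 targets of metabolism and repair, 14 fell and 3 rose, with a median log2 fold change of -2.11. Tap1, the peptide transporter of antigen presentation, fell furthest in this list, with 4.99 and 2.28 CPM in p53 KO cells and 226 and 217 CPM in wild-type cells. For Tap1 the log2 fold change was -5.93 ± 0.36 (adjusted p = 1.1e-05). Ephx1, microsomal epoxide hydrolase, was at 12.7 and 6.14 CPM in p53 KO cells, against 209 and 192 CPM in wild-type cells. For Ephx1 the log2 fold change was -4.41 ± 0.31 (adjusted p = 1.7e-05). Cpt1c, a neuronal carnitine palmitoyltransferase, was at 26.5 and 9.92 CPM in p53 KO cells, against 224 and 199.9 CPM in wild-type cells. For Cpt1c the log2 fold change was -3.54 ± 0.43 (adjusted p = 0.00024). For these 3 genes the wild-type drug libraries lay above the other 6 libraries of both genotypes. Phlda3, an inhibitor of AKT, had 7.14 and 0.428 CPM in p53 KO cells and 85.3 and 115 CPM in wild-type cells. For Phlda3 the log2 fold change was -4.72 ± 1.13 (adjusted p = 0.0085). Without line 1 the value was -7.86. Ano3, of the anoctamin family, was at 3.54 and 0.642 CPM in p53 KO cells, against 48.6 and 50.8 CPM in wild-type cells. For Ano3 the log2 fold change was -4.56 ± 0.58 (adjusted p = 0.00029). The members that rose were the excision-repair genes Xpc and Ddb2 and the glutaminase Gls2. Ddb2, a sensor of UV lesions, had 48.5 and 28.5 CPM in p53 KO cells and 15.3 and 14.2 CPM in wild-type cells. For Ddb2 the log2 fold change was 1.38 ± 0.23 (adjusted p = 0.0014). Rrm2b, the p53-inducible ribonucleotide reductase subunit, had 197 and 131 CPM in p53 KO cells and 154 and 129 CPM in wild-type cells and did not pass. For Rrm2b the log2 fold change was 0.21 ± 0.19 (adjusted p = 0.39). Without line 2 it was 0.48 with adjusted p = 0.029.

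**Figure D1:**
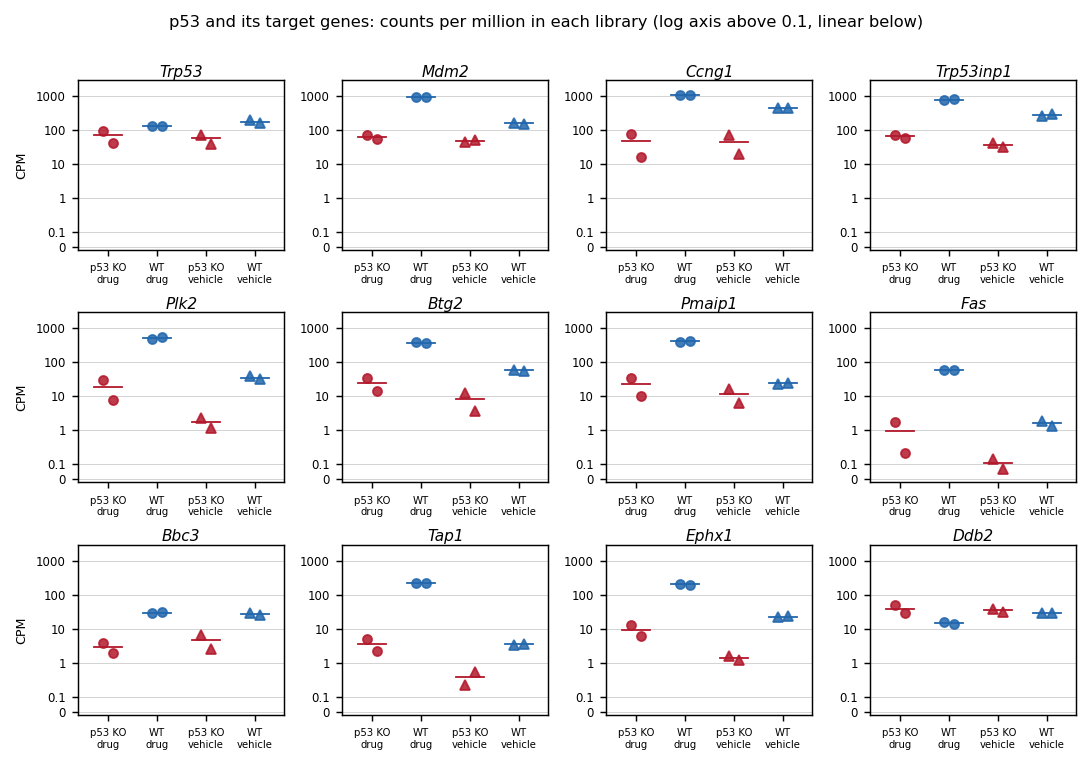
Level in CPM of Trp53 and 11 p53 target genes in each library (points) with the group mean (bar), by genotype and treatment, on an axis that is logarithmic above 0.1 CPM and linear below. Mdm2 sat at 69.8 and 52.4 CPM in p53 KO drug libraries and at 949.9 and 947 CPM in wild-type drug libraries; Ddb2 is the gene of the 12 panels that rose in p53 KO cells.

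Genes of the 2-cell embryo made up the second large group of falls. The Dux gene copy counted here as Duxf3 (chr10:58229979-58232675, - strand, GRCm38) had 3.95 and 0.714 CPM in p53 KO cells and 21.6 and 22.8 CPM in wild-type cells. For Duxf3 the log2 fold change was -3.24 ± 0.92 (adjusted p = 0.022). In the authors' deposited table, from DESeq or DESeq2, the value was -3.26 (adjusted p = 2.1e-06). Duxf3 was at 0 to 0.466 CPM in the vehicle libraries of both genotypes. Its call did not hold without wild-type library a (adjusted p = 0.079), without b (adjusted p = 0.089) or with DESeq2 (adjusted p = 0.30), and without line 1 the value was -4.95. Of 41 tested members of the multicopy 2-cell families, 36 fell and none rose, with a median log2 fold change of -4.78. Their reads can be shared between near-identical copies, so single members are uncertain. Zscan4c, a telomere and genome-stability factor of 2-cell-like cells, had 18.7 and 5.78 CPM in p53 KO cells and 449 and 543 CPM in wild-type cells. For Zscan4c the log2 fold change was -5.34 ± 0.50 (adjusted p = 0.00011). Usp17le, a deubiquitinase of the Usp17 family, was at 8.91 and 3.64 CPM in p53 KO cells, against 241 and 297 CPM in wild-type cells. For Usp17le the log2 fold change was -5.42 ± 0.53 (adjusted p = 7.7e-05). Tdpoz4, of the TD and POZ domain family, was at 0.867 and 0.285 CPM in p53 KO cells, against 24.3 and 35.4 CPM in wild-type cells. For Tdpoz4 the log2 fold change was -5.68 ± 0.58 (adjusted p = 0.00016). The summed level of the family list was 506 and 141 CPM in p53 KO cells and 4880 and 5800 CPM in wild-type cells under the drug. Dux KO cells under the same drug held 139 and 135 CPM; they share the wild-type libraries as their comparison, and no difference between the knockouts was tested. Pramef12 had 121 and 56.9 CPM in p53 KO cells and 67.2 and 59.8 CPM in wild-type cells and, like 4 other Prame members, did not pass.

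Of 13 low-copy 2-cell genes, 10 fell and 2 rose, with a median log2 fold change of -3.58. Sp110, a nuclear body protein, had 2.71 and 0.856 CPM in p53 KO cells and 77.8 and 96.9 CPM in wild-type cells. For Sp110 the log2 fold change was -5.61 ± 0.53 (adjusted p = 6.3e-05). Zfp352, a zinc finger gene used as a marker of the 2-cell stage, was at 2.64 and 1.21 CPM in p53 KO cells, against 65.4 and 86 CPM in wild-type cells. For Zfp352 the log2 fold change was -5.29 ± 0.45 (adjusted p = 6.9e-05). Arg2, mitochondrial arginase, was at 2.57 and 1.18 CPM in p53 KO cells, against 58.8 and 75.1 CPM in wild-type cells. For Arg2 the log2 fold change was -5.16 ± 0.40 (adjusted p = 2.7e-05). Line 2 was the lower knockout line in each. Zfp365, whose human counterpart is a known p53 target, had 4.92 and 0.357 CPM in p53 KO cells and 109 and 106 CPM in wild-type cells. For Zfp365 the log2 fold change was -5.34 ± 0.83 (adjusted p = 0.00089). Without line 1 the value was -8.22. It was the one member called lower under vehicle too, at 0.95 and 0.2 CPM in p53 KO cells and 18.8 and 16.7 CPM in wild-type cells. The exceptions were Tcl1 and Dppa3, both better known from naive and germ cells. Dppa3, the maternal factor Stella, had 6.31 and 26.8 CPM in p53 KO cells and 0.708 and 0.366 CPM in wild-type cells. For Dppa3 the log2 fold change was 4.94 ± 1.12 (adjusted p = 0.0066). Line 2 was the higher, and the call did not hold without wild-type library b (4.58, adjusted p = 0.064). Calcoco2 did not pass, with 104 and 103 CPM in p53 KO cells and 118 and 134 CPM in wild-type cells. Among 27 reported regulators of Dux, 10 rose, 5 fell and the median log2 fold change was 0.15. In this list 55.6% were called either way, against 43.7% of all genes tested (21.7% higher and 22% lower). Zscan4c, already counted among the multicopy 2-cell genes, is 1 of the 5 that fell. Nelfa, a maternal factor and driver of Dux, fell, with 91.5 and 78.9 CPM in p53 KO cells and 479.9 and 579.8 CPM in wild-type cells. For Nelfa the log2 fold change was -2.64 ± 0.15 (adjusted p = 9e-06). Lin28a, an RNA-binding protein that helps to keep Dux silent with nucleolin, rose, with 112 and 148 CPM in p53 KO cells and 26.6 and 37 CPM in wild-type cells. For Lin28a the log2 fold change was 2.03 ± 0.22 (adjusted p = 0.00012). Nucleolin itself, Ncl, had 1086 and 1136 CPM in p53 KO cells and 1002 and 1019 CPM in wild-type cells and did not pass. For Ncl the log2 fold change was 0.14 ± 0.14 (adjusted p = 0.45).

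**Figure D2:**
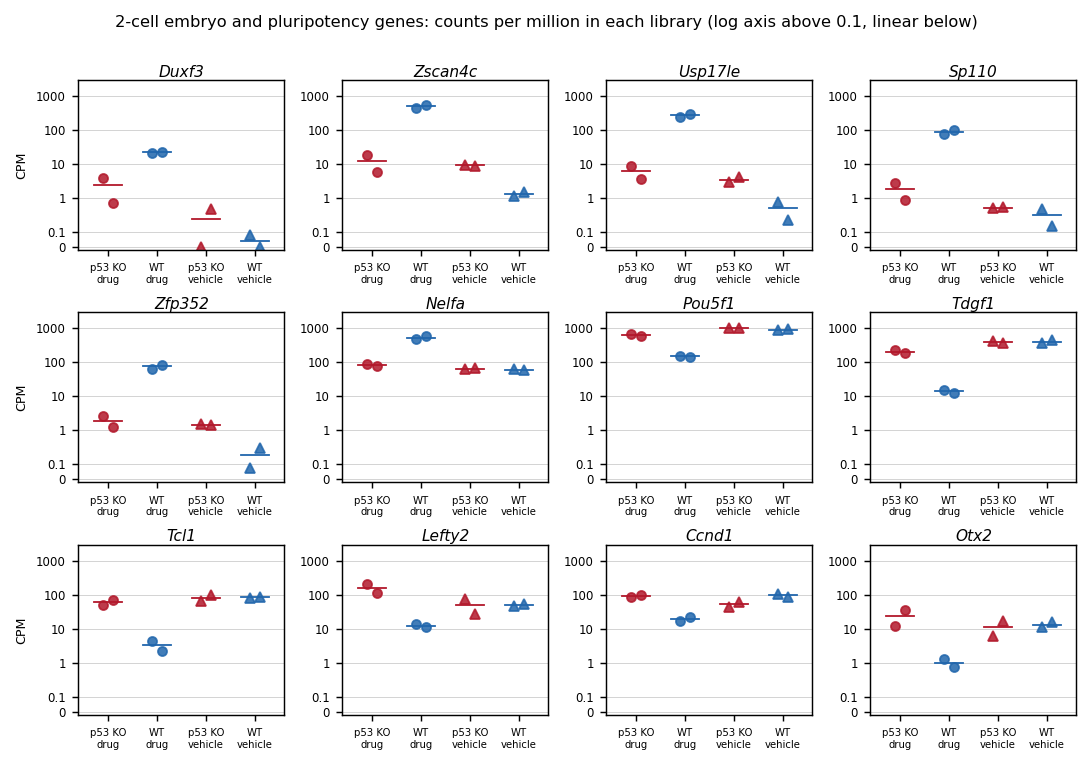
Level in CPM of 12 genes of the 2-cell embryo, pluripotency and its signals in each library (points) with the group mean (bar), by genotype and treatment, on an axis logarithmic above 0.1 CPM. Zscan4c was at 18.7 and 5.78 CPM in p53 KO drug libraries and 449 and 543 CPM in wild-type drug libraries, and Pou5f1 at 696 and 599 CPM in p53 KO drug libraries and 156 and 145 CPM in wild-type drug libraries.

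Pluripotency genes ran the other way. Of 11 core members, 9 rose and 1 fell in p53 KO cells, with a median log2 fold change of 0.91. Pou5f1, which encodes OCT4, had 696 and 599 CPM in p53 KO cells and 156 and 145 CPM in wild-type cells. For Pou5f1 the log2 fold change was 2.10 ± 0.14 (adjusted p = 1.4e-05). Utf1, a chromatin factor of stem cells, was at 43.4 and 38.7 CPM in p53 KO cells, against 10.6 and 12.6 CPM in wild-type cells. For Utf1 the log2 fold change was 1.82 ± 0.15 (adjusted p = 3.5e-05). Nanog, the homeobox factor of the naive state, had 591 and 350.1 CPM in p53 KO cells and 222 and 163 CPM in wild-type cells. For Nanog the log2 fold change was 1.29 ± 0.25 (adjusted p = 0.0027). All p53 KO libraries exceeded all wild-type libraries under the drug in these genes, as in 36.1% of all genes tested. For the same genes the drug libraries of both genotypes lay below their own vehicle libraries. Sox2, Tcf7l1, Tcf3 and Trim71 also rose, as did Lin28a, which is in this list too. Zfp281, a zinc finger factor, fell, with 58.8 and 80.3 CPM in p53 KO cells and 99 and 112 CPM in wild-type cells. For Zfp281 the log2 fold change was -0.60 ± 0.20 (adjusted p = 0.038). Its call was lost without line 1 (adjusted p = 0.17), wild-type library a (adjusted p = 0.075) or b (adjusted p = 0.21). Sall4 did not pass, with 77.8 and 121 CPM in p53 KO cells and 77.9 and 97.2 CPM in wild-type cells.

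Of 25 naive pluripotency genes, 15 rose and 3 fell, with a median log2 fold change of 0.95. Tcl1, an AKT coactivator, had 49.6 and 69.4 CPM in p53 KO cells and 4.31 and 2.26 CPM in wild-type cells. For Tcl1 the log2 fold change was 4.17 ± 0.33 (adjusted p = 3e-05). Tdgf1, the Nodal coreceptor CRIPTO, was at 228 and 185 CPM in p53 KO cells, against 15.7 and 12.2 CPM in wild-type cells. For Tdgf1 the log2 fold change was 3.89 ± 0.26 (adjusted p = 1.6e-05). Vehicle libraries of wild-type cells held 80.7 and 85.2 CPM for Tcl1 and 362 and 446 CPM for Tdgf1, above every drug library. Esrrb, an orphan nuclear receptor, was at 299 and 273 CPM in p53 KO cells, against 88 and 68.6 CPM in wild-type cells. For Esrrb the log2 fold change was 1.87 ± 0.15 (adjusted p = 3.1e-05). Klf5, a Krüppel-like factor, fell, with 86.5 and 50.6 CPM in p53 KO cells and 159 and 202 CPM in wild-type cells. For Klf5 the log2 fold change was -1.40 ± 0.30 (adjusted p = 0.0053). Dppa2 and Fbxo15 were the others that fell. In the Nodal and FGF list, 7 of 19 rose and 3 fell, with a median of 0.49. The Nodal antagonist Lefty2 had 203 and 112 CPM in p53 KO cells and 13.4 and 11.2 CPM in wild-type cells. For Lefty2 the log2 fold change was 3.68 ± 0.48 (adjusted p = 0.00033). Its relative Lefty1 had 37.1 and 33.1 CPM in p53 KO cells and 3.51 and 2.16 CPM in wild-type cells. For Lefty1 the log2 fold change was 3.63 ± 0.52 (adjusted p = 0.00055). Nodal itself was among the 3 that fell, as was Spred2, an inhibitor of RAS signalling, with 35.5 and 44.1 CPM in p53 KO cells and 85.2 and 108 CPM in wild-type cells. For Spred2 the log2 fold change was -1.28 ± 0.16 (adjusted p = 0.00026). Of 12 primed-state genes, 4 rose and 2 fell, with a median of 0.16. Calls either way made up 50% of this list, against 43.7% of all genes tested. Otx2, the homeobox factor of the exit from naive pluripotency, had 11.8 and 34.4 CPM in p53 KO cells and 1.29 and 0.731 CPM in wild-type cells. For Otx2 the log2 fold change was 4.51 ± 0.66 (adjusted p = 0.00066). Sox3, a relative of Sox2, was at 1.8 and 2.85 CPM in p53 KO cells, against 7.72 and 8.24 CPM in wild-type cells. For Sox3 the log2 fold change was -1.78 ± 0.35 (adjusted p = 0.0031).

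Of 31 G1/S and replication genes, 17 rose and 1 fell, with a median log2 fold change of 0.60. Without wild-type library b 10 rose. Ccnd1, cyclin D1, had 88 and 98.5 CPM in p53 KO cells and 17.2 and 21.7 CPM in wild-type cells. For Ccnd1 the log2 fold change was 2.26 ± 0.20 (adjusted p = 4.4e-05). Tk1, thymidine kinase, was at 66.3 and 38.1 CPM in p53 KO cells, against 20 and 17 CPM in wild-type cells. For Tk1 the log2 fold change was 1.50 ± 0.24 (adjusted p = 0.0011). Cdc6, a licensing factor, was at 88.8 and 77.9 CPM in p53 KO cells, against 33.6 and 26.6 CPM in wild-type cells. For Cdc6 the log2 fold change was 1.47 ± 0.15 (adjusted p = 9.9e-05). Rrm2, the replicative ribonucleotide reductase subunit, fell, with 240.5 and 201 CPM in p53 KO cells and 308 and 299 CPM in wild-type cells. For Rrm2 the log2 fold change was -0.46 ± 0.12 (adjusted p = 0.012). That call was lost without wild-type library a (adjusted p = 0.062). Of 26 genes of G2 and mitosis, 6 rose and 5 fell, near the background in both directions, and the median was 0.13. Cdc20, an activator of the anaphase-promoting complex, was at 183 and 94.6 CPM in p53 KO cells, against 388 and 427 CPM in wild-type cells. For Cdc20 the log2 fold change was -1.55 ± 0.29 (adjusted p = 0.0023). Among 15 topoisomerases and drug transporters, 3 rose and 7 fell, with a median of -0.43. Top2a, the topoisomerase II that doxorubicin traps in cycling cells, had 1106 and 918 CPM in p53 KO cells and 456 and 465 CPM in wild-type cells. For Top2a the log2 fold change was 1.14 ± 0.14 (adjusted p = 0.00022). Top2b, its relative in resting cells, fell, with 33.9 and 29.6 CPM in p53 KO cells and 80.9 and 81.8 CPM in wild-type cells. For Top2b the log2 fold change was -1.36 ± 0.16 (adjusted p = 0.00018). Abcb1b, the P-glycoprotein pump that exports doxorubicin, also fell, with 64 and 41.1 CPM in p53 KO cells and 346 and 343 CPM in wild-type cells. For Abcb1b the log2 fold change was -2.71 ± 0.19 (adjusted p = 1.9e-05).

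Of 21 genes of homologous recombination and the Fanconi pathway, 9 rose and none fell by edgeR (median 0.35), while 2 were lower at an unadjusted p under 0.05 and 2 by DESeq2. Rad51c, a recombination factor, had 41.6 and 46.4 CPM in p53 KO cells and 8.37 and 7.24 CPM in wild-type cells. For Rad51c the log2 fold change was 2.49 ± 0.18 (adjusted p = 1.9e-05). Of 24 genes of end joining and damage signalling, 9 rose and 3 fell (median 0.19). Parp1, the poly(ADP-ribose) polymerase, was at 536 and 608 CPM in p53 KO cells, against 263 and 259.9 CPM in wild-type cells. For Parp1 the log2 fold change was 1.13 ± 0.14 (adjusted p = 0.00025). Those that fell were H2afx, Chek2 and Nhej1. Nhej1, the XLF end-joining factor, had 2.84 and 2.43 CPM in p53 KO cells and 21.9 and 20.9 CPM in wild-type cells. For Nhej1 the log2 fold change was -3.02 ± 0.21 (adjusted p = 1.7e-05). Replication-dependent histone genes, whose main transcripts lack a poly-A tail and are poorly sampled by this library type, numbered 6 lower and 0 higher of 22 by edgeR (median -1.30). Cytosolic ribosomal protein genes numbered 6 higher and none lower of 34 by edgeR (median 0.16), with 1 lower at an unadjusted p under 0.05 and 3 by DESeq2. Pol I and ribosome biogenesis genes numbered 10 higher and 5 lower of 25 (median 0.24), the MYC network 5 higher and 4 lower of 14 (median 0.25), and DNA methylation enzymes 4 higher and 1 lower of 11 (median 0.38). Of all genes tested 21.7% were higher and 22% lower. The 27.3% of histone genes lower and the 17.6% of ribosomal protein genes higher lay near these shares. Calls either way made up 60% (Pol I), 64.3% (MYC) and 45.5% (DNA methylation) of these lists, against 43.7% of all genes. Mxd4, a MAX partner that antagonises MYC, had 7.53 and 6.92 CPM in p53 KO cells and 74.2 and 66.6 CPM in wild-type cells. For Mxd4 the log2 fold change was -3.28 ± 0.19 (adjusted p = 1e-05). Uhrf1, which brings DNMT1 to replicating DNA, was at 217 and 219 CPM in p53 KO cells, against 94.3 and 96.3 CPM in wild-type cells. For Uhrf1 the log2 fold change was 1.19 ± 0.13 (adjusted p = 0.00013).

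**Figure D3:**
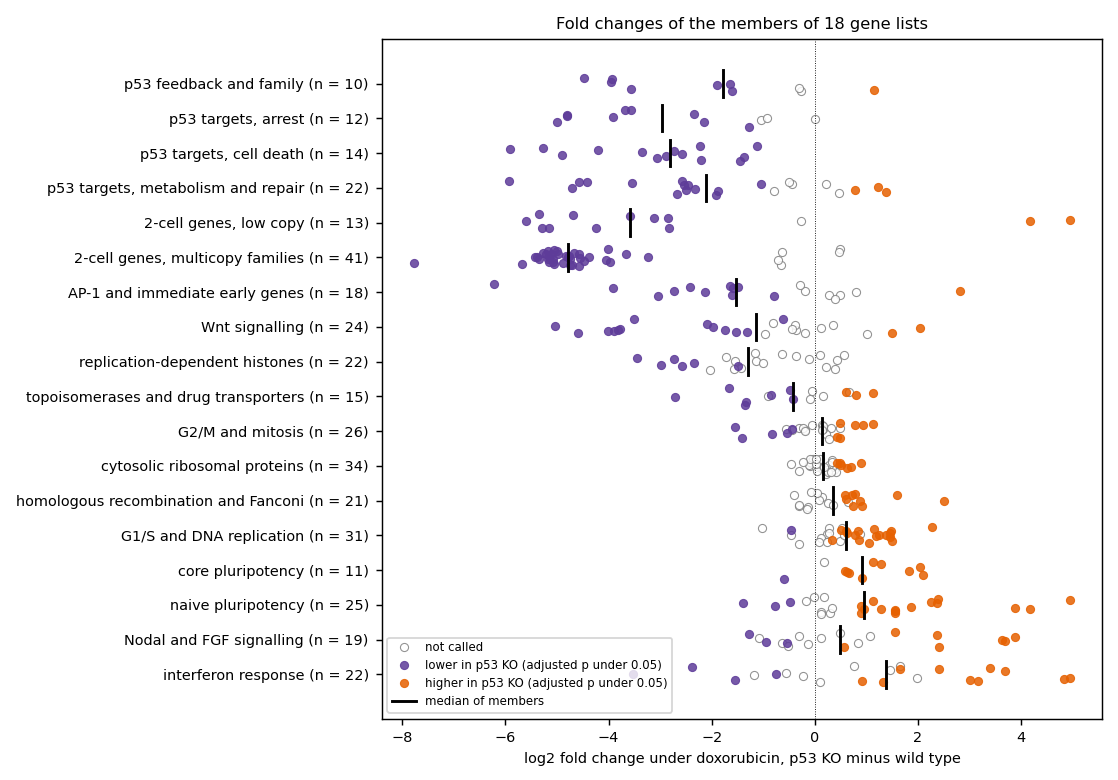
log2 fold change (p53 KO minus wild type under doxorubicin) of each tested member of 18 gene lists, filled where the adjusted p is under 0.05, with the median of each list as a black bar. The 4 p53 lists and both 2-cell lists have medians between -1.77 and -4.78, and the naive and core pluripotency lists have medians of 0.95 and 0.91.

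Of 18 AP-1 and immediate early genes, 11 fell and 1 rose (median -1.53). Jun, a subunit of AP-1, had 8.95 and 8.28 CPM in p53 KO cells and 66.5 and 76.4 CPM in wild-type cells. For Jun the log2 fold change was -3.05 ± 0.19 (adjusted p = 1.3e-05). Fosl1, another AP-1 subunit, was at 1.39 and 0.714 CPM in p53 KO cells, against 15.8 and 15.9 CPM in wild-type cells. For Fosl1 the log2 fold change was -3.91 ± 0.34 (adjusted p = 4.4e-05). Maff, a small MAF factor, was the one that rose, with 10.8 and 13.7 CPM in p53 KO cells and 2.22 and 1.26 CPM in wild-type cells. For Maff the log2 fold change was 2.81 ± 0.29 (adjusted p = 0.00011). Myc was lower, with 5.55 and 2.36 CPM in p53 KO cells and 10.7 and 13.6 CPM in wild-type cells. For Myc the log2 fold change was -1.62 ± 0.55 (adjusted p = 0.039). That call was lost without line 2 (-1.13, adjusted p = 0.14), or without wild-type library a (adjusted p = 0.086) or b (adjusted p = 0.16).

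Of 24 Wnt pathway genes, 13 fell and 2 rose (median -1.15), in a medium that activates the pathway in all groups. The ligand gene Wnt8a had 0.763 and 0.357 CPM in p53 KO cells and 19.5 and 17.7 CPM in wild-type cells. For Wnt8a the log2 fold change was -5.04 ± 0.64 (adjusted p = 0.0003). Wnt3, a ligand of gastrulation, was at 2.57 and 1.21 CPM in p53 KO cells, against 49.4 and 42.3 CPM in wild-type cells. For Wnt3 the log2 fold change was -4.60 ± 0.44 (adjusted p = 6.9e-05). Fzd7, a Wnt receptor, rose, with 17.5 and 42.3 CPM in p53 KO cells and 6.31 and 8.27 CPM in wild-type cells. For Fzd7 the log2 fold change was 2.04 ± 0.39 (adjusted p = 0.0028). Line 2 was the higher; without it the value was 1.27. Among 22 genes of the ATF4 amino-acid stress response, 9 rose and 3 fell (median 0.17). Calls either way made up 54.5% of this list, against 43.7% of all genes tested. Nupr1, a stress-induced chromatin protein, had 37.4 and 46.4 CPM in p53 KO cells and 2.06 and 2.53 CPM in wild-type cells. For Nupr1 the log2 fold change was 4.19 ± 0.29 (adjusted p = 1.7e-05). Ddit4, an inhibitor of mTORC1 that is also a p53 target, fell, with 33.3 and 65.1 CPM in p53 KO cells and 305 and 279 CPM in wild-type cells. For Ddit4 the log2 fold change was -2.57 ± 0.27 (adjusted p = 0.00011). Asns, asparagine synthetase, had 463 and 388 CPM in p53 KO cells and 421 and 406 CPM in wild-type cells and did not pass. Of 22 interferon response genes, 10 rose and 4 fell (median 1.38). Oas1a, a sensor of double-stranded RNA, had 71.6 and 45.2 CPM in p53 KO cells and 5.21 and 3.92 CPM in wild-type cells. For Oas1a the log2 fold change was 3.68 ± 0.25 (adjusted p = 1.7e-05).

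Of 18 trophectoderm genes 5 fell and 2 rose, of 18 primitive endoderm genes 4 fell and 1 rose, and of 12 primitive streak genes 4 fell and 2 rose. Of 11 neuroectoderm genes 4 fell and 2 rose, and of 18 germline genes 7 rose and 5 fell. Medians of the 5 lists lay between -0.70 and 0.23. Over all genes tested 22% fell and 21.7% rose, so the falls of the trophectoderm and primitive endoderm lists lay near the background. Krt7, a keratin of simple epithelia, had 1.46 and 2.14 CPM in p53 KO cells and 118 and 104 CPM in wild-type cells. For Krt7 the log2 fold change was -5.95 ± 0.37 (adjusted p = 1.2e-05). Hnf4a, a nuclear receptor of endoderm, was at 3.95 and 2.03 CPM in p53 KO cells, against 45.5 and 60.4 CPM in wild-type cells. For Hnf4a the log2 fold change was -4.14 ± 0.54 (adjusted p = 0.00033). Pax6, the eye and neural regulator, rose, with 11.1 and 6.67 CPM in p53 KO cells and 0.257 and 0.266 CPM in wild-type cells. For Pax6 the log2 fold change was 5.07 ± 0.71 (adjusted p = 0.00052). Ddx4, the germ cell helicase VASA, was at 37.3 and 41.9 CPM in p53 KO cells, against 6.76 and 6.98 CPM in wild-type cells. For Ddx4 the log2 fold change was 2.53 ± 0.17 (adjusted p = 1.6e-05). Among markers of other cells, 4 of the 7 fibroblast markers, Col3a1, Dcn, Lum and Postn, were each at or under 0.357 CPM in these 4 libraries. Thy1, another of the 7, had 7.01 and 8.21 CPM in p53 KO cells and 7.59 and 8.24 CPM in wild-type cells. The 7 fibroblast markers summed to 10.4 and 10.1 CPM in p53 KO cells and 26.6 and 29.8 CPM in wild-type cells, most of the difference being Col1a1. It had 2.71 and 1.14 CPM in p53 KO cells and 17.8 and 20.1 CPM in wild-type cells. The 4 primitive endoderm markers summed to 7.63 and 9.42 CPM in p53 KO cells and 26.3 and 24.9 CPM in wild-type cells, mostly through Pdgfra and Gata6. Gata4 ran the other way without a call, at 3.4 and 2.9 CPM in p53 KO cells and 1.48 and 1.53 CPM in wild-type cells. The 5 blood and endothelial markers summed to 210 and 203 CPM in p53 KO cells and 91.7 and 91.1 CPM in wild-type cells, nearly all of it Pecam1, an adhesion molecule that mouse embryonic stem cells also express. Pecam1 had 208 and 203 CPM in p53 KO cells and 85.5 and 84.8 CPM in wild-type cells and was called higher. The globin gene Hba-a1 was called lower, with 0.59 and 0.0714 CPM in p53 KO cells and 5.12 and 4.82 CPM in wild-type cells. Ptprc and Cdh5 stayed at or under 0.869 CPM and Hbb-bs was at 0. The 3 neuroectoderm markers summed to 12.6 and 7.74 CPM in p53 KO cells and 2.61 and 2.13 CPM in wild-type cells, with Pax6 the largest part in p53 KO cells. The 4 trophectoderm markers summed to 16.1 and 21.6 CPM in p53 KO cells and 21.3 and 27.2 CPM in wild-type cells. Their part in the results was not tested. In the 9 tested members of the fibroblast list 3 fell and 1 rose (median -0.06), and in the 10 of the blood and endothelial list 3 fell and 3 rose (median -0.86).

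Outside the lists, the 10 largest falls were in genes with under 1 CPM in both knockout lines. Cbln2, a synaptic organiser, had no count in the p53 KO libraries, against 14.1 and 14.1 CPM in wild-type cells, at least 134-fold lower when a floor of 3 counts a library is assumed. Ces2e, Ces2g, Ces2f and Ces2b, neighbouring carboxylesterase genes on chromosome 8, fell together. Ces2g had 0.0694 and 0.0714 CPM in p53 KO cells and 93.3 and 85.4 CPM in wild-type cells. For Ces2g the log2 fold change was -10.24 ± 0.61 (adjusted p = 1.8e-05). For Ces2e, 2 counts over both p53 KO libraries stood against 3665 in wild-type cells, a ratio of 0.000587 after scaling for library size (exact 95% interval 7.1e-05 to 0.00212, counting error only). These genes are similar in sequence, so reads may be shared among them. Krt15, a basal keratin, was at 0.382 and 0.0714 CPM in p53 KO cells, against 83.5 and 74.6 CPM in wild-type cells. For Krt15 the log2 fold change was -8.41 ± 0.57 (adjusted p = 1.6e-05). Rgs14, a regulator of G protein signalling, was at 0.832 and 0.357 CPM in p53 KO cells, against 144 and 137 CPM in wild-type cells. For Rgs14 the log2 fold change was -7.87 ± 0.47 (adjusted p = 1.1e-05). Casp14, Tekt4 and Rai2 completed the 10. Without line 1 the fitted values were -13.51 for Casp14 and -15.05 for Ces2f, where line 2 had no count and no size can be read. The largest rises were in genes near the detection limit in damaged wild-type cells. Grrp1 had 9.57 and 6.07 CPM in p53 KO cells and 0.0643 and 0.0665 CPM in wild-type cells. For Grrp1 the log2 fold change was 6.83 ± 0.67 (adjusted p = 7.7e-05). Sat2, a polyamine acetyltransferase relative, was at 3.61 and 7.14 CPM in p53 KO cells, against 0.0643 and 0.0665 CPM in wild-type cells. For Sat2 the log2 fold change was 6.28 ± 0.69 (adjusted p = 0.00014). Rbp4, the retinol carrier, was at 6.52 and 7.42 CPM in p53 KO cells, against 0.0643 and 0.199 CPM in wild-type cells. For Rbp4 the log2 fold change was 5.69 ± 0.69 (adjusted p = 0.00024). Fgg, fibrinogen gamma, had 1.04 and 28.1 CPM in p53 KO cells and 0.129 and 0 CPM in wild-type cells and rested on line 2. Without that line the log2 fold change was 3.93 with adjusted p = 0.11, and the call was also lost without wild-type library a (adjusted p = 0.074) or b (adjusted p = 0.11). Kcnn1, Adad2, Kcnab3, Aurkc and Lhfpl5 also rose, by 5.31 to 5.78 on the log2 scale.

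Fold changes varied with the length of the gene. Of 997 protein-coding genes spanning over 200 kb, 511 fell (51.3%) and 49 rose (4.91%), with a median log2 fold change of -1.04. That compares with 609 that fell (17.6%) and 1195 that rose (34.6%) of 3456 genes of 10 to 20 kb, where the median was 0.35. The median of the genes over 200 kb was -0.07 in the vehicle comparison. Genes of over 200 kb took 3.52% and 3.48% of the counts in p53 KO drug libraries and 5% and 5.99% in wild-type drug libraries, and 3.78% to 3.94% in the 4 vehicle libraries. The authors' FPKM divide by the whole gene span and not by exons: in 98% of 1673 genes checked, count over FPKM equalled the span times one constant to within 1%, so intron reads may be part of them. How far intron reads move with the drug was not tested. By annotated class, 154 of 437 unprocessed pseudogenes fell and 31 rose (median -0.99), while of 2706 processed pseudogenes 304 fell and 496 rose (median 0.21).

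**Figure D4:**
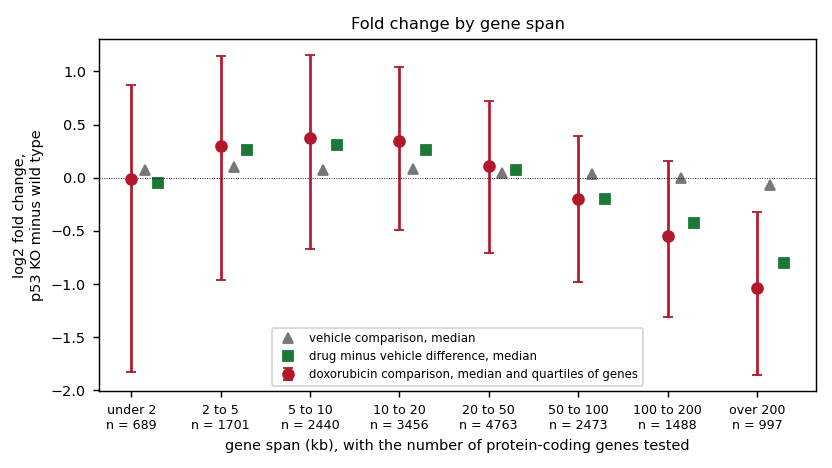
Median log2 fold change (p53 KO minus wild type) of protein-coding genes by gene span in kb, with quartiles for the doxorubicin comparison (circles), and medians for the vehicle comparison (triangles) and for the difference between both (squares). The doxorubicin median is 0.35 at 10 to 20 kb and -1.04 over 200 kb, while vehicle medians stay between -0.07 and 0.10.

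Without the drug, fewer genes were called. Under vehicle 40 genes were higher and 214 lower in p53 KO cells, which is 0.14% and 0.747% of those tested (0.887% in all). This count moved by over 1.5 times under other settings. DESeq2 called 548 higher and 764 lower, and a term for the knockout line (the replicate block) gave 1606 higher and 1844 lower. Leaving out 1 drug library at a time, since all libraries enter 1 estimate of the spread, gave 246 higher and 521 lower without line 1, 248 and 527 without line 2, 6 and 69 without wild-type library a, and 11 and 79 without b. Leaving out 1 vehicle library gave 23 higher and 134 lower without p53 KO line 1 and 34 and 136 without line 2. Without wild-type vehicle library a it gave 0 higher and 30 lower by edgeR (879 and 1290 at an unadjusted p under 0.05), and without b 0 and 38 (1053 and 1370). Of the genes lower under vehicle, 200 were also lower under doxorubicin, 93.5% of the vehicle list and 3.17% of the drug list. Of those higher, 23 were, 57.5% of the vehicle list and 0.37% of the drug list. The 2 comparisons share no library. Across genes their log2 fold changes had r = 0.13, a description over genes that share libraries within each comparison. Of the p53 lists, 5 of 10 feedback, 4 of 12 arrest, 5 of 14 death and 7 of 22 metabolism and repair genes were lower under vehicle as well. Trp53inp1 had 41 and 31.2 CPM in p53 KO cells and 263 and 285 CPM in wild-type cells under vehicle (log2 fold change -2.93 ± 0.17, adjusted p = 0.00026). Ephx1 had 1.61 and 1.2 CPM in p53 KO cells and 21.9 and 23 CPM in wild-type cells (log2 fold change -4.00 ± 0.33, adjusted p = 0.0015). None of the 25 naive or 11 core pluripotency genes was called under vehicle by edgeR. At an unadjusted p under 0.05, 1 naive gene was higher and 4 lower, and 1 core gene higher and 2 lower; DESeq2 called 1 naive gene higher, 1 lower and 1 core gene lower. Of the 41 multicopy 2-cell genes, 1 was higher in p53 KO cells under vehicle, and the list median was 2.30 on the log2 scale. The low-copy 2-cell list had a vehicle median of 1.99. None of its members was called higher by edgeR, while 4 were higher at an unadjusted p under 0.05 and 4 by DESeq2.

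The difference between the drug and vehicle comparisons was tested as an interaction, which 2837 genes passed upward and 2961 downward (9.9% and 10.3% of those tested, 20.2% in all). With a term for the knockout line, 5660 passed upward and 5136 downward. Without wild-type library a, 1630 passed upward and 1932 downward, and without b 1350 and 1750; without wild-type vehicle library a the counts were 1409 and 1772, and without b 1341 and 1736. Of the genes higher under the drug, 43.7% passed it, and of those lower, 45.3%. Among the multicopy 2-cell genes 33 of 41 passed downward, as did 8 of 13 low-copy ones, where 1 passed upward. The median interaction was -6.99 (multicopy) and -5.24 (low copy), beyond the drug medians of -4.78 and -3.58. The vehicle medians of both lists were above 0 (2.30 and 1.99), which enlarges these interactions. Folds of genes near 0 counts under vehicle rest on few reads. Of 25 naive pluripotency genes 12 passed upward and 2 downward. Another 6 of 11 core pluripotency and 10 of 31 replication genes passed upward. In the p53 lists 1 feedback and 2 metabolism and repair genes passed upward. Passing downward were 4 of 10 feedback, 4 of 12 arrest, 7 of 14 death and 8 of 22 metabolism and repair genes. Mdm2 was one, with 44.7 and 49.2 CPM in p53 KO cells and 161 and 148 CPM in wild-type cells under vehicle and an interaction of -2.23 ± 0.21 (adjusted p = 0.00039). For Trp53inp1, whose difference was nearly as large under vehicle, the interaction was -0.64 ± 0.22 and missed the threshold (adjusted p = 0.071). A few genes turned round between treatments. Slc13a5, a citrate transporter, was at 56.9 and 72.9 CPM in p53 KO cells and 20.8 and 23.6 CPM in wild-type cells under the drug, and at 14.4 and 21.6 CPM in p53 KO cells and 64 and 67.7 CPM in wild-type cells under vehicle. Serpinf1, a secreted serpin, was at 3.19 and 3.89 CPM in p53 KO cells and 50.7 and 47.4 CPM in wild-type cells under the drug, and at 2.05 and 2.66 CPM in p53 KO cells and 0.388 and 0.299 CPM in wild-type cells under vehicle. Serping1 and Cdkl4 turned the same way as Slc13a5, and Fbxo16 and the Zscan4 pseudogenes Zscan4-ps1 and Zscan4-ps2 the same way as Serpinf1.

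**Figure D5:**
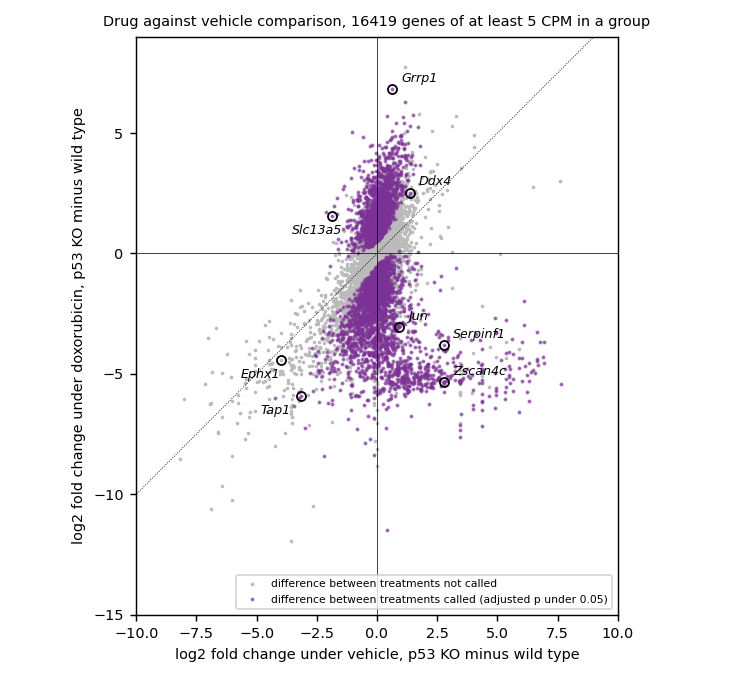
log2 fold change (p53 KO minus wild type) of 16419 genes of at least 5 CPM in a group, under doxorubicin (vertical) and under vehicle (horizontal), coloured where the difference between both comparisons passed the test; the dotted line marks equal values. Ephx1 and Tap1 lie at the lower left, lower in p53 KO cells in both comparisons, Zscan4c and Serpinf1 at the lower right, and Slc13a5 above 0 under the drug and below 0 under vehicle; folds of genes near 0 counts under vehicle rest on few reads.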

How the data were processed

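Poly-A RNA of 12 libraries in 6 groups of 2 was sequenced, and 11 libraries were used, because 1 Dux KO vehicle column repeats another in all 54532 genes. The authors deposited raw read counts per Ensembl gene, made from reads aligned with TopHat2 to mm10, per the submitters' processing notes; the read counter and its strand setting are not given in the sources used here, so overlapping antisense genes cannot be told apart. The authors also deposited FPKM values and, for this contrast, a table of log2 fold changes with adjusted p-values, from DESeq or DESeq2 per the submitters' processing notes, whose direction is p53 KO over wild type. Another 6 columns of FPKM averages were not used.

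The deposited counts were filtered with filterByExpr (minimum count 10, 28643 genes kept), scaled by TMM and fitted in R 4.3.3 with edgeR 4.0.16's quasi-likelihood test over all 11 libraries by group, with Benjamini-Hochberg adjustment and a threshold of 0.05. That fit gave the p53 KO against wild-type contrast under drug, under vehicle, and their difference. limma 3.58.1 on log2(FPKM + 1) and DESeq2 1.42.0 on counts were alternatives. On simulated counts of 26485 genes for the drug comparison, 97 of 100 changes of 4-fold and 14 of 100 changes of 2-fold were called, and 5 unchanged genes. No other genes were changed, all groups had the wild-type drug mean, and 1 spread served every gene. In the data 43.7% of genes were called, so the simulated rates need not hold there. Depth ran from 23270358 to 56795858 counts a library.

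The members and the 33 gene lists were chosen with earlier results of these data known. From each list the text names the 3 called members of at least 5 CPM that changed most (5 in the p53 and 2-cell lists), the largest change in the rarer direction and the most abundant member not called, then the 10 largest changes each way outside the lists and the 5 largest interactions and reversals each way. Cdkn1a, Bax, Nanog, Esrrb, Ckap2 and Ms4a10, and members named without values, were added after their values were seen. Promoters come from RefSeq (GRCm38.p6), and gene classes and spans from GENCODE M21. Same replicate numbers link the drug and vehicle libraries of a knockout line (correlation of their deviations 0.67) but pair no p53 KO with a wild-type library. A few genes that the rule names are not reported here.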

Additional observations from a re-analysis of the deposited data

Results flagged for a closer look

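Each group holds 2 libraries, too few to test whether a library stands apart. What was marked here is that the genotypes differed unequally under doxorubicin and under vehicle, by edgeR's interaction test at an adjusted p under 0.05, which 2837 genes passed upward and 2961 downward.

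The largest upward interactions were in Grrp1 (6.20 on the log2 scale), Rbp4 (5.26), Sat2 (5.14), Serpina3i (4.73) and Otx2 (4.71). Both directions were ranked among called protein-coding genes with a mean of at least 5 CPM in the higher drug group, leaving out predicted genes. Grrp1, Rbp4 and Sat2 were near the detection limit in the wild-type drug libraries. In each of these 5 the wild-type drug libraries were the lowest: Serpina3i had 3.26 and 7.71 CPM in p53 KO cells and 0.129 and 0.366 CPM in wild-type cells under the drug, and 1.17 and 2.6 CPM in p53 KO cells and 2.02 and 2.54 CPM in wild-type cells under vehicle.

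The largest downward ones were in Hdc, histidine decarboxylase (-11.48), BC061212 (-11.27) and BC080695 (-11.12) of the multicopy 2-cell list, Kcnj15, a potassium channel (-11.05), and Tcstv3, a 2-cell gene (-11.04). All 5 were at 0 in the wild-type vehicle libraries, so the fitted values depend on the small count that edgeR adds and are no measure of size. Hdc had 1.39 and 0.928 CPM in p53 KO cells and 22.8 and 31.1 CPM in wild-type cells under the drug, and 0.402 and 0.466 CPM in p53 KO cells and 0 CPM in wild-type cells under vehicle. Kcnj15 had 0.208 and 0.143 CPM in p53 KO cells and 32.7 and 37.6 CPM in wild-type cells under the drug.

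Genes called in opposite directions by the 2 comparisons had interactions of 3.31 (Cdkl4), 3.42 (Slc13a5) and 2.28 (Serping1) where the drug difference was upward, and of -8.20 (Zscan4-ps2), -9.05 (Zscan4-ps1), -6.56 (Serpinf1) and -4.92 (Fbxo16) where it was downward. In all, 3 genes were higher under the drug and lower under vehicle, and 10 the reverse. Zscan4-ps2 had 23.1 and 7.53 CPM in p53 KO cells and 524 and 593 CPM in wild-type cells under the drug, and 9.61 and 9.52 CPM in p53 KO cells and 1.32 and 1.05 CPM in wild-type cells under vehicle.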

How the results depend on the processing

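The counts of genes lower in the p53 lists and 2-cell lists and of genes higher in the pluripotency lists stayed within 1.5 times of their values under the 13 alternatives run on them; without 1 drug library they ranged from 8 to 10 (arrest), 14 to 16 (metabolism and repair), 9 to 10 and 32 to 38 (2-cell), 12 to 14 (naive) and 7 to 9 (core), stayed at 7 (feedback) and 14 (death), and the replication list from 10 to 18. Without 1 library the drug comparison called 3883 to 6682 genes higher and 4301 to 6875 lower, the vehicle comparison 0 to 248 higher and 30 to 527 lower, and the interaction 1341 to 3266 higher and 1736 to 3555 lower; leaving out vehicle libraries was chosen after seeing the data. The library left alone in its group is then assumed to vary like the other groups. limma on FPKM with the filter called 2791 (pseudocount 1) and 2662 (0.1) genes lower under the drug, 5 and 20 higher and 38 and 91 lower under vehicle, and 1959 and 1706 with a downward interaction; without the filter (pseudocount 1) it called 10 higher and 31 lower under vehicle. DESeq2 called 548 higher and 764 lower under vehicle, and edgeR without a filter on low counts 73 higher. The 4-library fit gives no vehicle comparison. The cause of these shifts was not tested.

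Replicate numbers pair the drug and vehicle libraries of a knockout line (correlation of their deviations 0.67) but not p53 KO with wild-type libraries. With the knockout line as a block, 1606 genes were higher and 1844 lower under vehicle, and the interaction was called upward for 5660 and downward for 5136. Over the genes named, 2175 of the alternative values kept their call, 69 lost it, 59 gained one and none reversed a call. With 2 libraries a group and 5 residual degrees of freedom, changes of low genes rest on the pooled spread.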

Other observations

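Around Trp53 on chromosome 11, of 69 tested genes within 500 kb of it, 33 were higher and 10 lower in p53 KO cells under doxorubicin, where 21.7% of all genes tested were higher and 22% lower, with a median log2 fold change of 0.68, against 0.02 over all genes, and the median under vehicle was 0.33. The window was chosen with earlier results of these data known, and no test of it was made.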
